A study of Mus musculus with 16 samples.

Results

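The genes described are 10 members of the epidermal growth factor (EGF) family out of 20295 genes counted by RNA-seq: 7 ligands, Areg, Ereg, Hbegf, Btc, Tgfa, Nrg1 and Nrg4, and 3 receptors, Egfr, Erbb2 and Erbb3. They were chosen by name around Areg, which was selected on these data for its large rise with SR-3420. In the fit used here, Areg held rank 5 by log2 fold change (log2FC) in SR-3420 against vehicle among the 12786 genes that passed a filter on low counts. Because that comparison served in the choice of Areg, it is given without a test for any member. Whether libraries with an inhibitor also served in the choice is not known. All 10 members passed the filter, Areg through the groups with SR-3420.

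EGF-family ligands are made as precursors anchored in the cell membrane, and metalloproteases such as ADAM17 release them by shedding. The ligands bind receptor tyrosine kinases of the ErbB family, which pair with each other and signal through RAS-MAPK and PI3K to early genes such as Fos and Egr1 and to feedback inhibitors such as Sprouty proteins. In adipose tissue, Nrg4 is known as a factor secreted by brown adipocytes, and ligands of EGFR are known to restrain the differentiation of cultured preadipocytes.

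The cells were wild type by their labels and came from a single mouse brown preadipocyte line made immortal with the SV40 large T antigen, differentiated in culture and treated on day 7. SR-3420 is a ligand of ABHD5 that activates lipolysis by the lipase ATGL. Triacsin C (spelled Triascin C in the labels) blocks the activation of fatty acids by acyl-CoA synthetases, and etomoxir blocks their entry into mitochondria through CPT1. After 1 h with or without 5 µM triacsin C or 50 µM etomoxir, cells received 10 µM SR-3420 or none for 3 h. The study's text gives a higher SR-3420 dose than the labels. The groups were vehicle (n = 2), SR-3420 (n = 2), triacsin C (n = 3), triacsin C + SR-3420 (n = 3), etomoxir (n = 3) and etomoxir + SR-3420 (n = 3), 16 libraries with 9452861 to 25670624 counts each (median 13602886). Triacsin C replicate 1 and etomoxir + SR-3420 replicate 2 stood apart from the libraries with the same replicate number in other groups, and calls on the members are also given without both.

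The adipocyte label was checked against 10 brown adipocyte markers, all of which were detected. Levels are in CPM, each library's counts scaled to a common library size with TMM. Fabp4 was the most abundant, with a mean of 5831 CPM, and Adipoq had a mean of 2065 CPM. Ucp1, the defining thermogenic marker, was low, at 0.461 to 3.66 CPM. Of 8 preadipocyte and fibroblast markers, Col1a1 was the most abundant at 1978 CPM. Macrophage markers were near 0 (Emr1 at a mean of 0.0624 CPM) apart from Cd68 at 7.45 CPM and Csf1r at 1.18 CPM, and so were endothelial markers (Pecam1 0.204 CPM) apart from Kdr at 1.50 CPM.

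The levels of both abundant marker lists differed between groups with and without SR-3420. The summed level of the brown adipocyte markers was 14009 and 12759 CPM in vehicle, 10672 and 9845 CPM with SR-3420, 14435, 15360 and 15072 CPM in triacsin C, and 5657, 5734 and 6018 CPM in triacsin C + SR-3420. In etomoxir the same sum was 13555, 12394 and 13711 CPM, and in etomoxir + SR-3420 it was 7250, 5367 and 8977 CPM. Not all of these markers followed the sum. In SR-3420 against vehicle, log2FC were 0.84 for Ucp1, 0.76 for Cidea, 0.20 for Ppargc1a and 0.15 for Lipe, without a test. The other brown adipocyte markers lay between -0.98 (Cox8b) and -0.04 (Plin1). Ucp1 had a log2FC of 0.75 with SR-3420 in triacsin C and 1.11 in etomoxir, and passed in neither (edgeR adjusted p = 0.221 and 0.0998). The preadipocyte and fibroblast markers summed to 1894 and 1638 CPM in vehicle, 4061 and 2955 CPM with SR-3420, 2629, 2313 and 2001 CPM in triacsin C, 4599, 3860 and 3072 CPM in triacsin C + SR-3420, 2285, 1656 and 1107 CPM in etomoxir, and 4768, 3479 and 2347 CPM in etomoxir + SR-3420. With SR-3420, 5 of the 10 brown adipocyte markers fell and 1 rose in triacsin C, and 5 fell in etomoxir. Of the preadipocyte and fibroblast markers, 3 of 8 rose in triacsin C and 5 of 8 in etomoxir. Of all genes tested, 17.3% rose and 19.7% fell in triacsin C, and 12.5% rose and 12.8% fell in etomoxir. Without etomoxir + SR-3420 replicate 2, 3 brown adipocyte markers fell in etomoxir, and without etomoxir replicate 1, 1 rose there. The rise in triacsin C, of Prdm16, was lost without triacsin C replicate 1 or 3 or triacsin C + SR-3420 replicate 1 or 2 (0 each). The count of preadipocyte and fibroblast markers in triacsin C was 5 without triacsin C replicate 1 and 1 without triacsin C replicate 3 or triacsin C + SR-3420 replicate 1. In etomoxir that count was 3 without etomoxir replicate 2 or 3 or etomoxir + SR-3420 replicate 2, 2 without etomoxir + SR-3420 replicate 1, 6 without etomoxir replicate 1 and 7 without etomoxir + SR-3420 replicate 3. Cox8b fell by 1.99 and Plin1 by 1.48 in triacsin C, and by 1.25 and 0.90 in etomoxir, all on the log2 scale. Prdm16 had a log2FC of 0.74 in triacsin C and -0.46 in etomoxir, where it did not pass, and the difference did not pass (adjusted p = 0.131). Adipoq fell by 1.68 on the log2 scale in triacsin C (SE 0.21, edgeR adjusted p = 6.23e-05) and by 1.24 in etomoxir (SE 0.21, adjusted p = 0.000922), while Thy1 rose by 0.68 (SE 0.19, adjusted p = 0.0127) and 0.84 (SE 0.19, adjusted p = 0.00614). Pdgfra rose by 0.47 and 0.56. Cd34 rose by 1.27 in triacsin C and had a log2FC of 0.76 in etomoxir (adjusted p = 0.0557), and Col1a1 rose by 1.27 in etomoxir and had a log2FC of 0.90 in triacsin C (adjusted p = 0.0525), with differences that did not pass (adjusted p = 0.707 and 0.876). Cd68 fell by 1.29 on the log2 scale in triacsin C and had a log2FC of 0.15 in etomoxir, a difference of -1.44 (adjusted p = 0.0329) whose call ended (0 genes) without any of the 12 libraries other than etomoxir + SR-3420 replicate 3. The level of Cd68 was also higher in triacsin C alone than in vehicle (log2FC 1.92), while triacsin C + SR-3420 against SR-3420 gave -0.05. Kdr rose by 0.96 and 1.28. The call on Kdr in triacsin C was lost without triacsin C replicate 1 or 2 or triacsin C + SR-3420 replicate 1 or 2 (0 endothelial markers each). In these bulk samples, fewer cells of a type and less RNA per cell cannot be told apart, and the part of these markers in the changes of the EGF family was not tested.

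**Figure D1:**
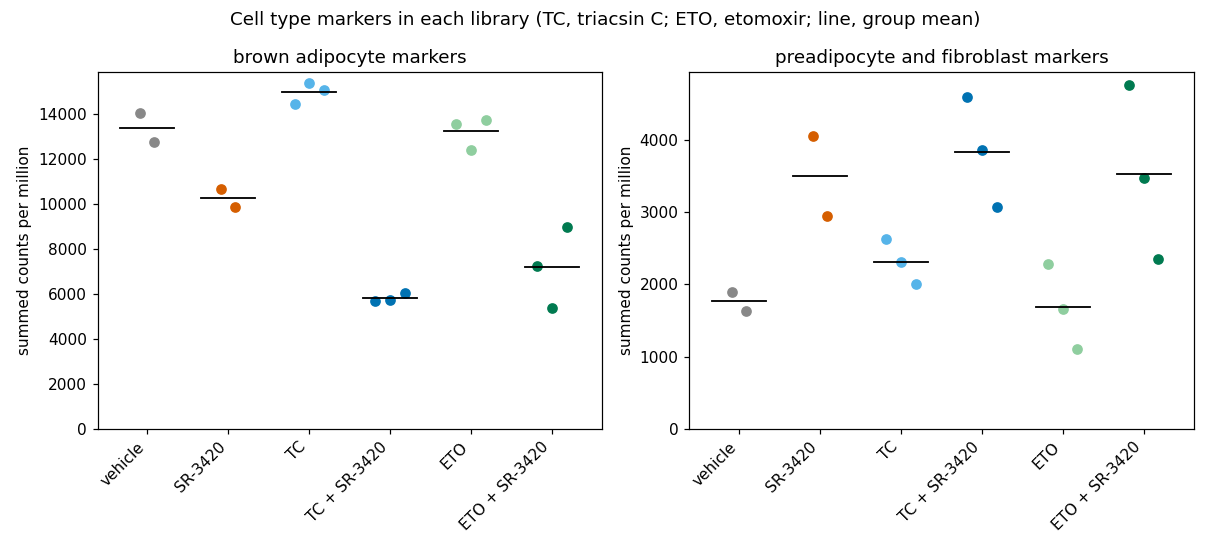
Summed CPM of the 10 brown adipocyte markers (left) and the 8 preadipocyte and fibroblast markers (right) in each library, with the group mean as a line. The brown adipocyte sum was at most 6018 CPM in triacsin C + SR-3420 and at least 14435 CPM in triacsin C.

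Areg encodes amphiregulin, a ligand of EGFR. Areg lies on chromosome 5, at chr5:91568641-91577458 (build mm9, plus strand), where the annotation gives it 6 exons, and overlaps no other gene of the table. Ereg, at chr5:91503643-91522675, starts 65.0 kb before it on the same strand, and Btc, at chr5:91786287-91832020 on the minus strand, starts 263 kb after it. On mm9, Egfr lies at chr11:16652206-16813910 (plus), Erbb2 at chr11:98273798-98299030 (plus), Erbb3 at chr10:128006424-128026557 (minus), Tgfa at chr6:86145245-86225443 (plus), Nrg1 at chr8:32928500-33028675 (minus) and Nrg4 at chr9:55068029-55131432 (minus). RefSeq promoter sequences (GRCm38.p6) were matched for 6 of the 10 members, Areg, Btc, Tgfa, Nrg4, Egfr and Erbb2, and not for Ereg, Hbegf, Nrg1 and Erbb3. The 250 bases before the start are shown for Areg (chr5:91139349-91139598, plus strand) and Egfr (chr11:16751953-16752202, plus strand), the members with a promoter entry that rose with SR-3420 under both inhibitors. Capitals mark motifs that were found, of which the Egfr sequence holds none.
Areg: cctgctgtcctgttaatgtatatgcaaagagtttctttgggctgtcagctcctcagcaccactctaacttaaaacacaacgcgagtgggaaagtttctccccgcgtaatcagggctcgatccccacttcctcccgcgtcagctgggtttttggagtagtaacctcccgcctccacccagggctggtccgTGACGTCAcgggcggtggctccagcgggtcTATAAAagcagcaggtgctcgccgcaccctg
Egfr: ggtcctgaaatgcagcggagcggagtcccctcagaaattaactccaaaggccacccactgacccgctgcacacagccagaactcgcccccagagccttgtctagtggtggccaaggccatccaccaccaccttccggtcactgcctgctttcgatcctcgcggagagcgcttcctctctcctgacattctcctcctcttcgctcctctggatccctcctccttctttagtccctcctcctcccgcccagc
The windows searched ran from 250 bases before to 50 bases after each start, on both strands. The cAMP response element TGACGTCA, which reads the same on both strands, occurred in the Areg window 61 to 54 bases before the start, and in 1.79% of all 32851 promoter windows. A TATA element, TATAAA, lay 31 to 26 bases before the Areg start and was in 13.6% of windows. Neither motif was in the windows of the other 5 members. The AP-1 element TGANTCA (7.81% of windows), the EGR1 element GCGTGGGCG (0.612%) and the composite C/EBP-ATF element TGATGNAAT (0.965%) were in none of the 6. A match is a description of the letters in the window and not of a factor's binding.

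Without SR-3420, Areg was close to the limit of detection, with 2 and 3 counts in vehicle, 6, 8 and 6 in triacsin C and 1, 9 and 2 in etomoxir. With SR-3420 it had 71 and 123 counts alone, 195, 237 and 152 with triacsin C and 180, 165 and 117 with etomoxir. Every library with SR-3420 was above every library without it. In CPM, Areg was 0.146 and 0.277 in vehicle and 4.19 and 7.81 with SR-3420, a log2FC of 4.81 (SE 0.69) in the libraries on which Areg was selected. In triacsin C it went from 0.645, 0.547 and 0.455 CPM to 12.5, 20.0 and 14.3 CPM with SR-3420. In etomoxir it went from 0.0658, 0.711 and 0.166 CPM to 7.23, 12.1 and 6.89 CPM. The libraries with an inhibitor were not used to choose Areg, and there it rose with a log2FC of 4.82 in triacsin C (SE 0.49, edgeR adjusted p = 1.37e-05) and 4.80 in etomoxir (SE 0.52, adjusted p = 4.05e-05). As its groups with SR-3420 carried it past the filter on low counts, the test was also run with no filter, where the adjusted p was 4.29e-06 in triacsin C (3.99e-21 to 0.000210 over 12 alternatives) and 1.32e-05 in etomoxir (3.98e-16 to 0.0116 over 12 alternatives). Among the 12786 genes tested, Areg held rank 2 by log2FC in triacsin C and rank 3 in etomoxir. Because the counts without SR-3420 were low, ratios of summed counts were also given exact 95% intervals, which cover counting error only. The ratio was 28.4 (18.2 to 46.9) in triacsin C and 27.7 (15.7 to 53.9) in etomoxir. Without etomoxir replicate 2, which held 9 of the 12 Areg counts in that group, the log2FC in etomoxir was 6.19.

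**Figure D2:**
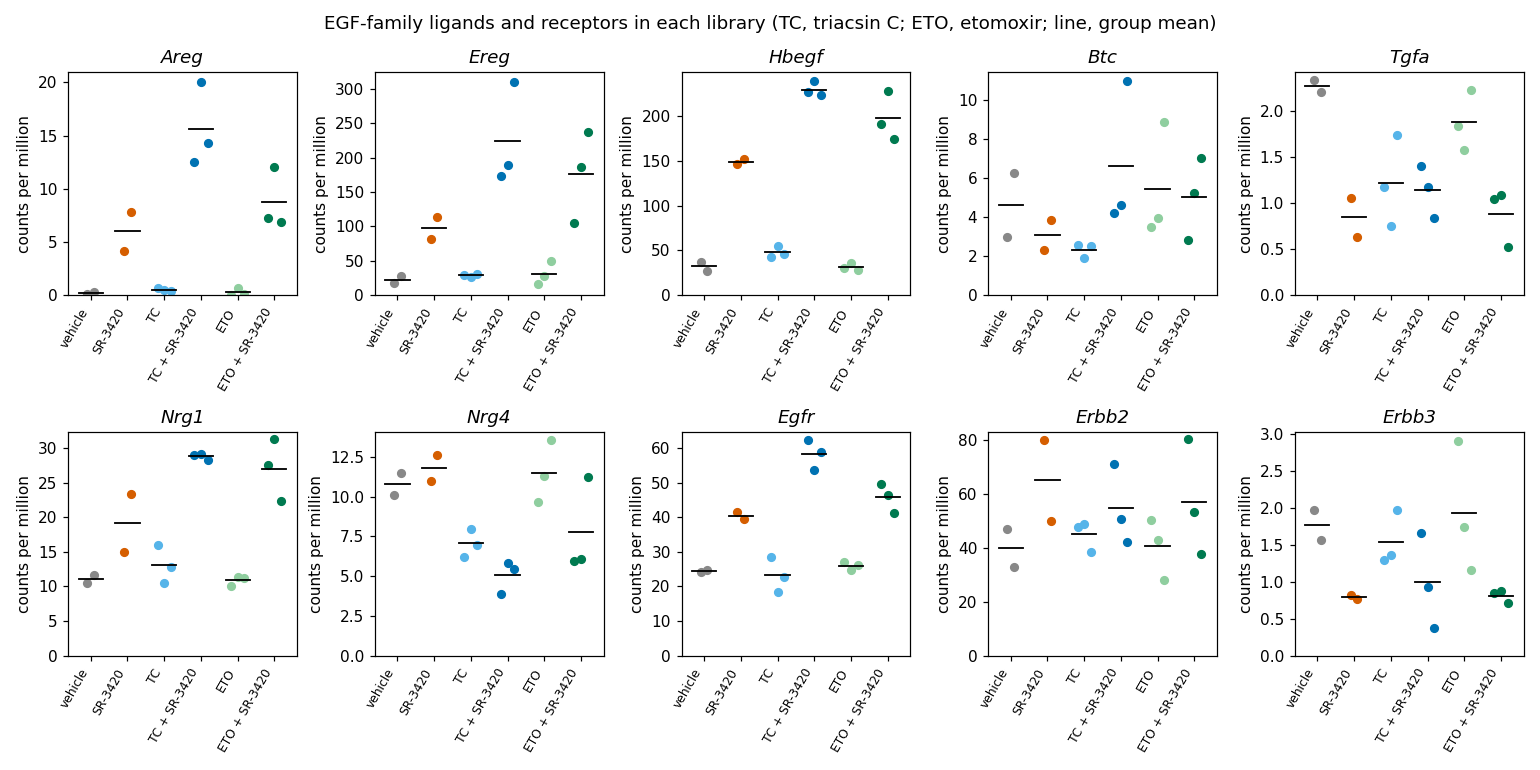
CPM of the 10 members in each library of the 6 groups, with the group mean as a line and a separate linear scale from 0 for each gene. The libraries with SR-3420 lie above those without it for Areg, Ereg, Hbegf and Egfr, and under both inhibitors they overlap for Erbb2.

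Ereg, which encodes epiregulin, a ligand of EGFR and ERBB4, was abundant also without SR-3420. It was at 17.9 and 27.5 CPM in vehicle, 29.0, 26.7 and 31.3 CPM in triacsin C and 16.2, 28.2 and 49.6 CPM in etomoxir. With SR-3420 it was at 81.7 and 114 CPM alone, 173, 189 and 310 CPM with triacsin C and 106, 186 and 237 CPM with etomoxir. The lowest library with SR-3420 was above the highest without it. Ereg rose with SR-3420 by a log2FC of 2.95 in triacsin C (SE 0.40, edgeR adjusted p = 0.000109) and 2.50 in etomoxir (SE 0.40, adjusted p = 0.000596).

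Hbegf encodes heparin-binding EGF-like growth factor, another ligand of EGFR and ERBB4, and was the most abundant member per counted length. It was at 37.6 and 27.0 CPM in vehicle, 42.5, 55.2 and 46.2 CPM in triacsin C and 30.4, 35.6 and 28.3 CPM in etomoxir. With SR-3420 it was at 147 and 152 CPM alone, 227, 238 and 223 CPM with triacsin C and 191, 227 and 174 CPM with etomoxir. The range within each group was small beside the distance between groups with and without SR-3420. Hbegf rose by a log2FC of 2.26 in triacsin C (SE 0.16, edgeR adjusted p = 9.70e-07) and 2.65 in etomoxir (SE 0.16, adjusted p = 4.65e-07).

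Nrg1 encodes neuregulin 1, a ligand of ERBB3 and ERBB4. It had 10.5 and 11.7 CPM in vehicle, 16, 10.5 and 12.8 CPM in triacsin C and 10.1, 11.4 and 11.2 CPM in etomoxir. With SR-3420 it had 15.0 and 23.4 CPM alone, 29.0, 29.2 and 28.2 CPM with triacsin C and 27.6, 31.3 and 22.3 CPM with etomoxir. Within each inhibitor the libraries with SR-3420 were all above those without. The log2FC was 1.14 in triacsin C (SE 0.19, edgeR adjusted p = 0.000555) and 1.31 in etomoxir (SE 0.20, adjusted p = 0.000381).

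Btc encodes betacellulin, a ligand of EGFR and ERBB4, and passed the test in triacsin C. It was at 2.58, 1.91 and 2.50 CPM in triacsin C and 4.23, 4.64 and 11 CPM in triacsin C + SR-3420, a rise with a log2FC of 1.50 (SE 0.50, edgeR adjusted p = 0.0326). In etomoxir it was at 3.49, 3.95 and 8.87 CPM, and with SR-3420 at 2.81, 5.26 and 7.01 CPM (log2FC -0.12, SE 0.47, adjusted p = 0.894), groups that overlapped. The responses differed by 1.61, which did not pass (adjusted p = 0.341). Vehicle, at 3.00 and 6.27 CPM, and SR-3420, at 2.30 and 3.87 CPM, overlapped too. In triacsin C alone Btc had a log2FC of -0.98 against vehicle (edgeR adjusted p = 0.321) and -1.22 against etomoxir (adjusted p = 0.119), neither of which passed. The call in triacsin C was lost without triacsin C + SR-3420 replicate 3, the library at 11 CPM (log2FC 0.93, adjusted p = 0.177), and without triacsin C replicate 1, 2 or 3 (adjusted p = 0.0650, 0.110 and 0.0722), within a range of 0.000525 to 0.177 over 13 alternatives. Tgfa, for transforming growth factor alpha, was among the scarcest members, at 9 to 32 counts per library. It fell with SR-3420 in etomoxir by 1.07 on the log2 scale (SE 0.35, edgeR adjusted p = 0.0402), and had a log2FC of -0.07 in triacsin C (adjusted p = 0.890). The difference of these responses was 1.00 (95% interval -0.01 to 2.00, adjusted p = 0.483). Without SR-3420, Tgfa was already lower in triacsin C (1.18, 0.752 and 1.74 CPM) than in vehicle (2.34 and 2.21 CPM), a step that did not pass. Triacsin C overlapped etomoxir, at 1.84, 1.58 and 2.24 CPM. With SR-3420 in triacsin C it was at 1.41, 1.18 and 0.844 CPM, which overlapped etomoxir + SR-3420. The part of the lower level in triacsin C in its response was not tested. The call on Tgfa ended without etomoxir replicate 1, 2 or 3 (adjusted p = 0.0768, 0.0589 and 0.0994) and without etomoxir + SR-3420 replicate 1, 2 or 3 (adjusted p = 0.0501, 0.0623 and 0.117), in a range of 0.0212 to 0.117 over 12 alternatives. It also ended with no filter on low counts and with only the compared groups (adjusted p = 0.0980 in the latter).

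Nrg4 encodes neuregulin 4, a ligand of ERBB4 that brown adipocytes secrete. It had 10.1 and 11.5 CPM in vehicle and 11 and 12.6 CPM with SR-3420. In triacsin C it had 6.24, 8.0 and 6.98 CPM, and 3.91, 5.82 and 5.44 CPM with SR-3420. In etomoxir it had 9.68, 11.3 and 13.6 CPM, and 5.98, 6.06 and 11.2 CPM with SR-3420. All triacsin C libraries were below those of vehicle and etomoxir. The log2FC with SR-3420 was -0.49 in triacsin C (SE 0.26, edgeR adjusted p = 0.151) and -0.57 in etomoxir (SE 0.25, adjusted p = 0.110), neither of which passed. Within each inhibitor, however, every library with SR-3420 was below the library of the same number without it. With the replicate number as a block, Nrg4 passed in triacsin C (log2FC -0.50, edgeR adjusted p = 0.0487) and in etomoxir (-0.58, adjusted p = 0.0173). Nrg4 overlaps Fbxo22 in the table, and as the sources used do not say whether counting used the strand, reads of both genes may be shared.

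Among the receptors, Egfr was raised by SR-3420 under both inhibitors. Egfr, the receptor of amphiregulin, had 24.1 and 24.6 CPM in vehicle, 28.4, 18.5 and 22.8 CPM in triacsin C and 27.0, 24.8 and 26.3 CPM in etomoxir. With SR-3420 it had 41.4 and 39.6 CPM alone, 62.4, 53.7 and 59.0 CPM with triacsin C and 49.7, 46.3 and 41.3 CPM with etomoxir. No library with SR-3420 was as low as the highest without it. The log2FC was 1.33 in triacsin C (SE 0.15, edgeR adjusted p = 2.35e-05) and 0.81 in etomoxir (SE 0.14, adjusted p = 0.00129). Erbb2, the receptor with no known ligand of its own, was at 28.3 to 80.4 CPM. Under both inhibitors its libraries with and without SR-3420 overlapped, with a log2FC of 0.28 in triacsin C (adjusted p = 0.494) and 0.49 in etomoxir (adjusted p = 0.259). Within each inhibitor, every library with SR-3420 was above the library of the same number without it. With the replicate number as a block, Erbb2 passed in etomoxir (log2FC 0.47, edgeR adjusted p = 0.00812) and not in triacsin C (0.24, adjusted p = 0.121). Without inhibitor, both SR-3420 libraries (80.2 and 50.1 CPM) were above both of vehicle (46.9 and 33.0 CPM). It overlaps Mien1, with which reads may be shared. Erbb3, the receptor of neuregulin 1, was scarce at 4 to 44 counts per library. With SR-3420 it fell in etomoxir by 1.26 on the log2 scale (SE 0.42, edgeR adjusted p = 0.0427), and in triacsin C its log2FC was -0.59 (adjusted p = 0.312). The difference of these responses was 0.67 (95% interval -0.52 to 1.86, adjusted p = 0.787). The call on Erbb3 ended without etomoxir replicate 1 or 2 (adjusted p = 0.206 and 0.0751) and without etomoxir + SR-3420 replicate 1, 2 or 3 (adjusted p = 0.0798, 0.0958 and 0.0983), in a range of 0.0152 to 0.206 over 12 alternatives. It also ended with no filter on low counts (adjusted p = 0.0532) and with only the compared groups (adjusted p = 0.0792).

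With SR-3420 in triacsin C, 6 of the 10 members rose (Areg, Ereg, Hbegf, Btc, Nrg1 and Egfr) and 0 fell, where 17.3% of the 12786 genes tested rose and 19.7% fell by edgeR. At an unadjusted p under 0.05, 6 members were higher and 0 lower, and DESeq2 called the same 6 higher and 0 lower. The median log2FC of the members was 1.24, beside 0.02 for all genes. In etomoxir, 5 members rose (Areg, Ereg, Hbegf, Nrg1 and Egfr) and 2 fell (Tgfa and Erbb3), where 12.5% of genes rose and 12.8% fell. At an unadjusted p under 0.05, 5 members were higher and 3 lower there (Tgfa, Erbb3 and Nrg4), and DESeq2 called the same 7 as edgeR. The median there was 0.65, beside 0.01 for all genes. These counts and medians include Areg, which its groups with SR-3420 carried past the filter, and they describe the members without supporting a statement on the family. Without triacsin C replicate 1 and etomoxir + SR-3420 replicate 2, an alternative chosen after seeing the data, 5 members passed in triacsin C and 5 in etomoxir, as the calls on Btc, Tgfa and Erbb3 were lost. With the replicate number as a block, Nrg4 also passed, at a log2FC of -0.50 in triacsin C (adjusted p = 0.0487) and -0.58 in etomoxir (adjusted p = 0.0173), and so did Erbb2 in etomoxir, at 0.47 (adjusted p = 0.00812). The block raised the share of all genes that passed too, to 27.5% higher and 28.7% lower in triacsin C and 22.7% and 22.5% in etomoxir. In the comparison of SR-3420 with vehicle, 3 members had a log2FC of at least 1 (Areg 4.81, Hbegf 2.20 and Ereg 2.11) and 2 of at most -1 (Tgfa -1.41 and Erbb3 -1.16), beside 4.58% and 3.79% of genes. Nothing is read from these shares, as that comparison chose Areg. The other members there had log2FC of 0.79 (Nrg1), 0.73 (Egfr), 0.70 (Erbb2), 0.13 (Nrg4) and -0.58 (Btc).

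**Figure D3:**
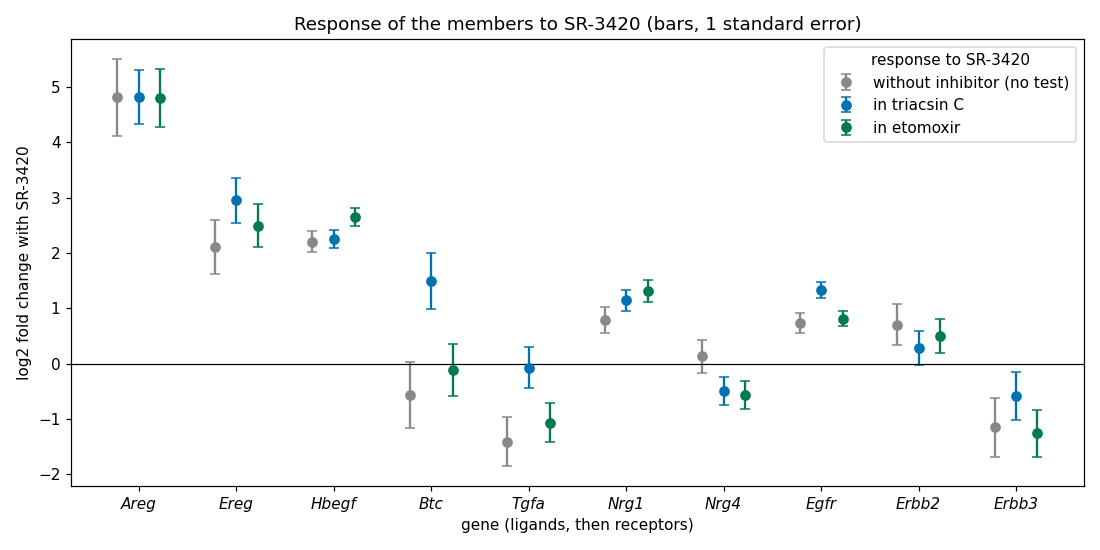
Log2 fold change of each member with SR-3420 without inhibitor (grey, no test), in triacsin C (blue) and in etomoxir (green), with 1 standard error as bars. Areg lies at 4.81, 4.82 and 4.80, and Btc at -0.58, 1.50 and -0.12.

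Whether the response to SR-3420 differed between the inhibitors was tested as the difference of the responses, triacsin C minus etomoxir. By edgeR, 0 of the 10 members passed in either direction, beside 1.52% of genes with a larger and 0.774% with a smaller response in triacsin C, and DESeq2 also called 0. At an unadjusted p under 0.05 there were 2, Btc and Egfr. For Areg the difference in log2FC was 0.02, with a 95% interval of -1.37 to 1.42 from the errors of both responses. The interval was -0.65 to 1.56 around 0.45 for Ereg and -0.84 to 0.04 around -0.40 for Hbegf. For Egfr the difference was 0.52 (0.12 to 0.92, adjusted p = 0.275), and for Btc 1.61 (0.26 to 2.97, adjusted p = 0.341). The members' median difference was 0.26, beside -0.06 for all genes. With the replicate number as a block, which gave 4.96% of all genes a larger and 3.29% a smaller response in triacsin C, the difference for Btc was 1.54 and passed (adjusted p = 0.0195). Btc's and Egfr's intervals are not corrected for the number of genes.

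The inhibitors alone were set against vehicle. With triacsin C, 1 member rose, Hbegf (log2FC 0.57, SE 0.17, edgeR adjusted p = 0.0497), and 0 fell, where 4.77% of genes rose and 6.94% fell. At an unadjusted p under 0.05, 1 member was higher and 2 were lower (Tgfa and Nrg4), and DESeq2 called Hbegf higher and 0 lower. The median of the members was 0.05, beside 0.07 for all genes. The call on Hbegf was lost without vehicle replicate 3 (log2FC 0.35, adjusted p = 0.447) and without triacsin C replicate 1, 2 or 3 (adjusted p = 0.0529, 0.170 and 0.0914), in a range of 0.00105 to 0.447 over 12 alternatives. Areg had a log2FC of 1.36, given without a test because the vehicle libraries also served in its selection, and its place in the counts over the members is a description. Of the 10 brown adipocyte markers, 3 fell with triacsin C alone, Prdm16 by 2.14 (adjusted p = 0.000255), Pparg by 1.48 (adjusted p = 0.000182) and Ppargc1a by 1.04 (adjusted p = 0.0196) on the log2 scale, and Cd68 rose by 1.92 (adjusted p = 0.000366). Their part in the change of Hbegf was not tested. With etomoxir, edgeR called 0 members in either direction, beside 0.0156% of genes higher and 0.00782% lower. No member had an unadjusted p under 0.05 there and DESeq2 called 0. The median was 0.09, beside 0.01 for all genes, and Areg, set against the same vehicle libraries, had a log2FC of 0.55, also without a test.

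Between the inhibitors without SR-3420, Hbegf was higher in triacsin C than in etomoxir (log2FC 0.61, SE 0.15, edgeR adjusted p = 0.0149), the call on 1 of 10 members. Of all genes, 8.08% were higher and 8.8% lower in triacsin C. At an unadjusted p under 0.05, 1 member was higher and 2 were lower, and DESeq2 called Hbegf higher and Nrg4 lower. This call was lost without triacsin C replicate 2 (adjusted p = 0.0789) and without etomoxir replicate 3 (adjusted p = 0.0617), in a range of 0.000264 to 0.0789 over 13 alternatives. Nrg4 had a log2FC of -0.70 (adjusted p = 0.0748), and it passed with the replicate block (-0.69, adjusted p = 0.0103), as did Btc (-1.17, adjusted p = 0.00498), where 22.1% of all genes were higher and 16.9% lower. The members' median was -0.14, beside 0.07 for all genes. Of the brown adipocyte markers, Prdm16 (-1.89), Ppargc1a (-1.42) and Pparg (-1.17) were lower and Cox8b (0.69) was higher, and Cd68 was higher too (1.60). The call on Cox8b was lost (0 genes higher) without triacsin C replicate 2 or 3 or etomoxir replicate 3. The part of these markers was not tested.

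Under SR-3420, levels with an inhibitor were compared with SR-3420 alone. In triacsin C + SR-3420, Nrg4 was lower (log2FC -1.23, SE 0.28, edgeR adjusted p = 0.0235), the 1 member of 10 to pass, and 0 were higher, beside 1.02% of genes higher and 3.55% lower. This call ended without SR-3420 replicate 1 or 3 (adjusted p = 0.142 and 0.0956) and without triacsin C + SR-3420 replicate 1, 2 or 3 (adjusted p = 0.0869, 0.0581 and 0.0699), in a range of 0.00177 to 0.142 over 11 alternatives. In the same comparison 5 of the 10 brown adipocyte markers fell, among them Plin1 by 1.45 (adjusted p = 0.0248), Lipe by 1.35 (adjusted p = 0.0186) and Prdm16 by 1.34 (adjusted p = 0.0166) on the log2 scale, and the median of the markers was -0.95, beside 0.02 for all genes. That count was 0 without SR-3420 replicate 1 and 1 without triacsin C + SR-3420 replicate 2 or 3. The part of these markers in the lower level of Nrg4 was not tested. Areg had a log2FC of 1.38, given without a test because the SR-3420 libraries also served in its selection. With the replicate number as a block, where 9.99% of all genes were higher and 13.5% lower, Ereg (log2FC 1.19, adjusted p = 0.00367, beside 0.141 without the block), Hbegf (0.53, adjusted p = 0.00419, beside 0.0575), Btc (1.15, adjusted p = 0.0147, beside 0.301) and Egfr (0.58, adjusted p = 0.00688, beside 0.0834) also passed as higher, and Nrg4 as lower (-1.25, adjusted p = 0.00177). At an unadjusted p under 0.05 without the block, 5 members were higher and 1 lower, and DESeq2 called 3 higher (Areg, Hbegf and Egfr) and 1 lower (Nrg4), counts from which nothing is read for Areg. The median of the members was 0.56, beside 0.02 for all genes. With etomoxir + SR-3420 against SR-3420, edgeR called 0 members, beside 0% of genes higher and 0.00782% lower. At an unadjusted p under 0.05, 2 were higher and 1 lower, and DESeq2 called 0. The block gave Ereg as higher there (log2FC 0.83, adjusted p = 0.0384, beside 0.521 without it) and Nrg4 as lower (-0.64, adjusted p = 0.0477, beside 0.480), where 5.95% of all genes were higher and 8.42% lower. Areg, set against the same SR-3420 libraries, had a log2FC of 0.54 without a test, and the median was 0.29, beside -0.00 for all genes. Triacsin C + SR-3420 against etomoxir + SR-3420 also gave 0 members by edgeR and 0 by DESeq2, beside 0.117% of genes higher and 0.18% lower. Areg (log2FC 0.84) and Egfr (0.35) were higher and Nrg4 (-0.62) lower at an unadjusted p under 0.05, with a median of 0.34, beside -0.01 for all genes.

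Ordered by group mean, Areg was highest in triacsin C + SR-3420 (15.6 ± 3.92 CPM, SD, n = 3), then in etomoxir + SR-3420 (8.72 ± 2.89, n = 3) and SR-3420 (6.00 ± 2.56, n = 2). It was far lower in triacsin C (0.549 ± 0.0950, n = 3), etomoxir (0.314 ± 0.347, n = 3) and vehicle (0.211 ± 0.0922, n = 2). Triacsin C + SR-3420 and etomoxir + SR-3420 did not pass the test of their difference (adjusted p = 0.623), nor did triacsin C and etomoxir (adjusted p = 0.442). The libraries of etomoxir + SR-3420 and SR-3420 overlapped, as did those of etomoxir and vehicle, and these steps, like that from SR-3420 to triacsin C, were not tested because they involve libraries that chose Areg. Per kilobase of counted length, the scale on which levels of genes can be compared, the order of the members differed between groups. In vehicle, mean levels ran from Hbegf (13.6 CPM per kb) over Erbb2 (8.01), Nrg4 (6.13), Ereg (5.49), Nrg1 (5.29), Egfr (4.09), Btc (1.61), Tgfa (0.538) and Erbb3 (0.441) to Areg, the lowest, at 0.176 ± 0.0769 (SD, n = 2). In triacsin C + SR-3420 they ran from Hbegf (96.5 ± 3.42, SD, n = 3) and Ereg (54.1 ± 18.1) over Nrg1 (13.7 ± 0.237), Areg (13.0 ± 3.27), Erbb2 (11 ± 2.97), Egfr (9.79), Nrg4 (2.87) and Btc (2.30) to Tgfa (0.271) and Erbb3 (0.246). In etomoxir + SR-3420 the order was Hbegf (83.2 ± 11.4), Ereg (42.7 ± 16), Nrg1 (12.9 ± 2.14), Erbb2 (11.4 ± 4.33), Egfr (7.67 ± 0.714), Areg (7.27 ± 2.41), Nrg4 (4.41), Btc (1.75), Tgfa (0.210) and Erbb3 (0.201), with n = 3. Areg had the largest log2FC of the members with SR-3420 in both inhibitors. Its mean level there was below those of Hbegf, Ereg and Nrg1, and in etomoxir also below those of Erbb2 and Egfr. In triacsin C + SR-3420 the means of Nrg1, Erbb2 and Egfr each lay closer to that of Areg than the SD of Areg. The same held for the mean of Egfr in etomoxir + SR-3420.

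The rest of the family was scarce. Of Egf, Epgn, Nrg2, Nrg3 and Erbb4, only Egf passed the filter on low counts, and it fell with SR-3420 in etomoxir by 0.95 on the log2 scale (SE 0.27, edgeR adjusted p = 0.0196) and had a log2FC of -0.13 in triacsin C, a difference that did not pass (adjusted p = 0.418). The call on Egf was lost (0 genes lower) without etomoxir replicate 1 or 2 or etomoxir + SR-3420 replicate 2 or 3. Epgn, which encodes epigen and lies between Ereg and Mthfd2l, had 44 counts over all libraries. Within 500 kb of Areg, 8 genes including Areg were tested. Cxcl1, a chemokine gene that starts 248 kb before Areg, rose with SR-3420 by a log2FC of 1.16 in triacsin C (SE 0.21, edgeR adjusted p = 0.00101) and 1.15 in etomoxir (SE 0.22, adjusted p = 0.00188). Rassf6 fell in etomoxir by 1.62 on the log2 scale (SE 0.30, adjusted p = 0.00176) and had a log2FC of -0.76 in triacsin C (adjusted p = 0.0858), and the difference of 0.87 did not pass (adjusted p = 0.480). Mthfd2l, Cxcl5 and Parm1 passed in neither, with log2FC between -0.30 (Parm1 in etomoxir) and 0.76 (Cxcl5 in triacsin C).

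**Figure D4:**
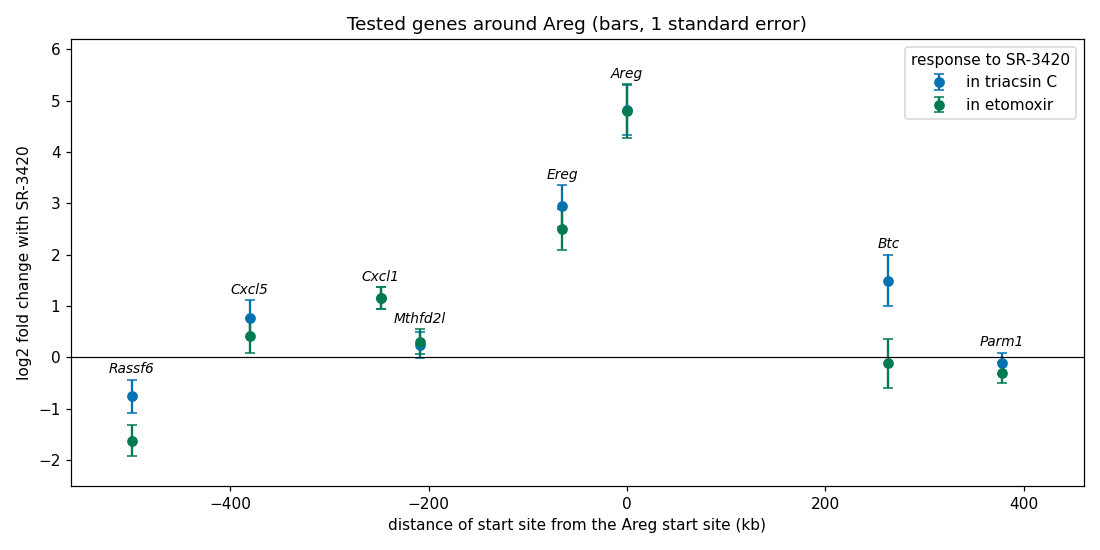
Log2 fold change with SR-3420 of the 8 tested genes within 500 kb of Areg against the distance of their start sites from that of Areg in kb, in triacsin C (blue) and etomoxir (green), with 1 standard error as bars. Ereg, 65.0 kb before Areg, is at 2.95 and 2.50, and the genes between it and Rassf6 lie lower.

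Genes that act around the receptor were taken from lists, to be read beside all genes, whose median log2FC with SR-3420 was 0.02 in triacsin C, where 17.3% rose and 19.7% fell, and 0.01 in etomoxir, where 12.5% rose and 12.8% fell. Shedding comprised 11 genes of proteases, their partners and inhibitors. In triacsin C, SR-3420 raised 5 and lowered 1 of them (median log2FC 0.60), and in etomoxir it raised 2 and lowered 1 (median 0.40). Timp3, an inhibitor of ADAM17, rose by 1.43 in triacsin C (edgeR adjusted p = 7.70e-05) and 1.62 in etomoxir (adjusted p = 6.13e-05), and the protease gene Adam19 by 0.86 (adjusted p = 0.000325) and 1.04 (adjusted p = 0.000178). Rhbdf2, which takes ADAM17 to the cell surface, rose by 1.04 in triacsin C (adjusted p = 0.0167) and had a log2FC of 0.41 in etomoxir, a difference that did not pass (adjusted p = 0.654). Adam12, another protease gene, had a log2FC of 0.60 in triacsin C and -0.14 in etomoxir, and the difference of 0.74 passed (adjusted p = 0.0250). That call was lost (0 genes) without triacsin C replicate 1 or 2, triacsin C + SR-3420 replicate 1, etomoxir replicate 1 or etomoxir + SR-3420 replicate 2. Triacsin C alone had lowered Adam12 against vehicle (log2FC -0.91, adjusted p = 0.000260), and in triacsin C + SR-3420 against SR-3420 its log2FC was -0.44 (adjusted p = 0.0574). Bace1 fell by 0.46 and 0.50 on the log2 scale. Its call was lost (0 genes lower) in triacsin C without triacsin C replicate 2 or triacsin C + SR-3420 replicate 2 or 3, and in etomoxir without etomoxir replicate 1 or 2 or etomoxir + SR-3420 replicate 2 or 3.

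Of 24 signal transduction genes, 4 rose with SR-3420 in triacsin C by edgeR and 6 by DESeq2 (median log2FC 0.27), and 2 rose in etomoxir (median 0.04). The adaptor gene Gab2 rose by 1.81 in triacsin C (edgeR adjusted p = 2.51e-05) and 0.64 in etomoxir (adjusted p = 0.0279), and the difference of 1.17 passed (adjusted p = 0.0437). Leaving out any of the 12 libraries other than triacsin C replicate 1 ended the call on that difference (0 genes). In triacsin C alone against vehicle Gab2 had a log2FC of -0.82 (adjusted p = 0.0272), and in triacsin C + SR-3420 against SR-3420 of 0.39 (adjusted p = 0.344). Map2k1, which encodes the kinase MEK1, rose by 0.66 (adjusted p = 0.00113) and 0.47 (adjusted p = 0.0140). Sos2, an activator of RAS, rose by 1.13 and Rasa1, which turns RAS off, by 0.89 in triacsin C, and they had log2FC of -0.04 and 0.38 in etomoxir. Pik3r1, a subunit of PI3K, fell by 0.63 on the log2 scale in etomoxir and had a log2FC of -0.22 in triacsin C. The differences of the responses of Sos2, Rasa1 and Pik3r1 did not pass (adjusted p = 0.380, 0.788 and 0.409). Triacsin C alone lowered 6 of the 24 genes against vehicle and raised 0, where 6.94% of all genes fell and 4.77% rose. The list median there was -0.25, beside 0.07 for all genes, and fewer fell whenever 1 triacsin C library was left out. In triacsin C + SR-3420 against SR-3420, Sos2 had a log2FC of 0.20 and Rasa1 of 0.54, and neither passed (edgeR adjusted p = 0.812 and 0.440). In triacsin C, 2 genes rose without triacsin C replicate 1, 2 or 3 or triacsin C + SR-3420 replicate 2, and in etomoxir 1 rose without etomoxir replicate 1, 2 or 3 or etomoxir + SR-3420 replicate 2.

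Negative feedback comprised 19 genes, of which 12 rose and 1 fell with SR-3420 in triacsin C (median log2FC 0.62) and 9 rose in etomoxir (median 0.57). Leaving out each library in turn gave 9 to 10 genes higher in triacsin C and 9 to 10 in etomoxir. Dusp5, a phosphatase of ERK, rose by 2.52 in triacsin C (SE 0.30, edgeR adjusted p = 4.03e-05) and 3.09 in etomoxir (SE 0.31, adjusted p = 2.21e-05). Spry2, a Sprouty inhibitor of RAS signalling, rose by 2.30 (SE 0.18, adjusted p = 3.06e-06) and 2.50 (SE 0.18, adjusted p = 2.05e-06). Errfi1, which encodes the EGFR inhibitor MIG6, rose by 1.40 (SE 0.30, adjusted p = 0.00286) and 1.91 (SE 0.31, adjusted p = 0.000664), and Cblb, a ubiquitin ligase gene, by 1.78 (SE 0.20, adjusted p = 2.46e-05) and 0.88 (SE 0.19, adjusted p = 0.00476). Spry1 fell by 0.46 on the log2 scale in triacsin C and had a log2FC of -0.20 in etomoxir, with a difference that did not pass (adjusted p = 0.783). The call on Spry1 was lost (0 genes lower) without triacsin C replicate 1, 2 or 3 and without triacsin C + SR-3420 replicate 2 or 3.

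Early targets of the receptor had the highest medians of the 4 lists. Of 17 genes, 15 rose in triacsin C (median log2FC 1.62) and 17 in etomoxir (median 2.01). Egr1 rose by 2.74 (SE 0.15, edgeR adjusted p = 2.06e-07) and 2.88 (SE 0.15, adjusted p = 1.58e-07), and Fosb by 2.41 (SE 0.24, adjusted p = 1.33e-05) and 2.84 (SE 0.25, adjusted p = 7.80e-06). Egr3 rose by 2.08 (SE 0.21, adjusted p = 1.31e-05) and 2.85 (SE 0.21, adjusted p = 2.28e-06), and Ptgs2, the gene of cyclooxygenase 2, by 3.02 (SE 0.31, adjusted p = 1.40e-05) and 2.81 (SE 0.30, adjusted p = 4.01e-05). Klf10 had a log2FC of -0.33 in triacsin C and 0.90 in etomoxir, and the difference of -1.23 passed (adjusted p = 0.00988). Against vehicle, triacsin C alone gave Klf10 a log2FC of 1.18 (adjusted p = 0.000653), and triacsin C + SR-3420 against SR-3420 gave 0.20 (adjusted p = 0.549). Triacsin C alone raised 7 of the 17 against vehicle, where 4.77% of all genes rose, with a median of 0.84 beside 0.07 for all genes, led by Ier3 at 1.37 (SE 0.19, adjusted p = 0.000280), Fosl1 at 1.30 and Phlda1 at 1.25. Without vehicle replicate 3 that count was 2. These genes answer many stimuli, and the part of EGF receptors in their change was not tested.

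**Figure D5:**
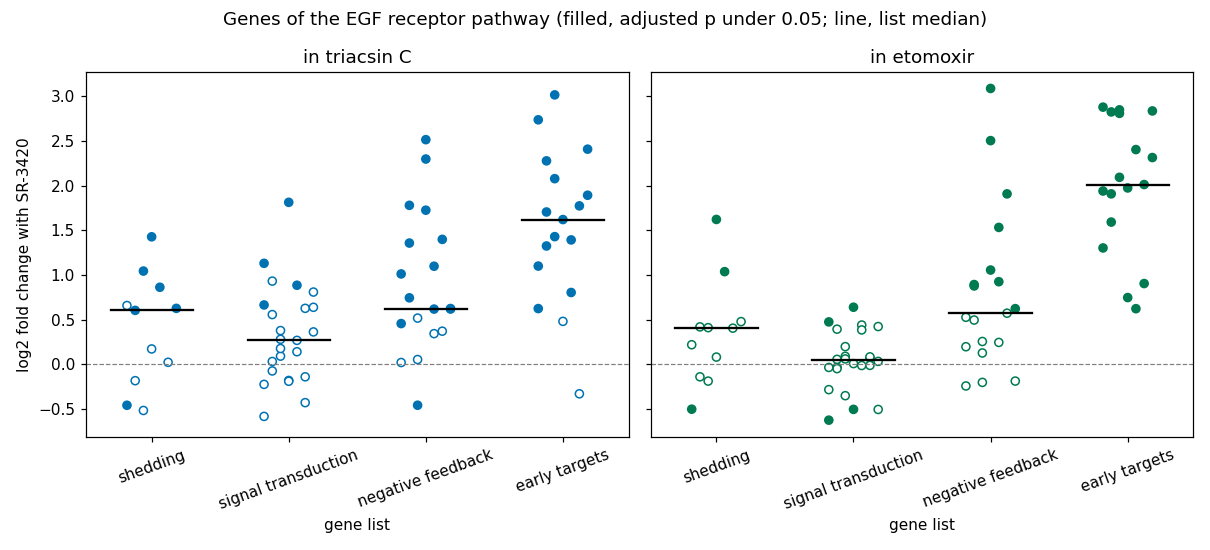
Log2 fold change with SR-3420 of genes in the shedding, signal transduction, negative feedback and early target lists, in triacsin C (left) and etomoxir (right), filled where the edgeR adjusted p was under 0.05, with the list median as a line. The early targets have medians of 1.62 and 2.01, and the signal transduction genes of 0.27 and 0.04.

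The genes most like Areg over the 16 libraries, by Pearson correlation of log2 CPM with 0.5 added among 10333 genes with a mean of at least 5 CPM, were Sh3pxd2b (r = 0.988), Mthfd1l (0.988), Eps8 (0.987), Wisp1 (0.987) and Map1b (0.984). Over the 12 libraries with an inhibitor, they were Rgs16 (0.993), Stc2 (0.991), Has1 (0.989), Cars (0.988) and Arhgef2 (0.988). Has1, a hyaluronan synthase gene, had a log2FC with SR-3420 of 3.46 in triacsin C and 3.71 in etomoxir, given without a test because its likeness to Areg in these libraries chose it. Among the members compared, Hbegf was the most like Areg (r = 0.984, rank 14, over the 12 libraries), followed by Nrg1 (0.967), Ereg (0.938) and Egfr (0.925), with Erbb2 at 0.460 and Nrg4 at -0.639. The libraries share their treatment groups, so these values describe the step with SR-3420 and carry no p.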

How the data were processed

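RNA-seq was done on 16 libraries from 6 groups. The authors aligned reads with STAR 2.4.2a to mm9, kept 1 read per position and length with HOMER and deposited whole-number counts for 20295 genes by iRNA-seq. The deposited table also gives each gene's counted length in bases (other values), used for CPM per kb. No strand setting is given in the sources used here. The study's text describes the replicates as independent experiments.

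From the counts, edgeR 4.0.16 with limma 3.58.1 in R 4.3.3 gave log2FC and p-values by its quasi-likelihood test, with TMM, filterByExpr (12786 genes kept), a mean per group and no covariate, adjusted by Benjamini-Hochberg over the genes tested, with a threshold of 0.05. Standard errors were derived from the log2FC and the test statistic, and for the difference of responses were combined from both responses. CPM used TMM library sizes. Genes kept through 1 group that is high, such as Areg, pass the filter by that group. The members and lists were chosen with earlier results of these data known. From each list, up to 3 passing genes per direction were named for a described comparison, by size of log2FC; a gene named in 1 inhibitor is given in both. Adam12, Gab2, Klf10 and Cd68 were named for the difference of the responses. Genes most like Areg are the 5 with the highest correlation, and neighbours lie within 500 kb. Alternatives were DESeq2 size factors, DESeq2 1.42.0, other filters, only the compared groups, a replicate block, left-out libraries and a required log2FC of 1. The tests were tested on simulated data. Figures used Python 3.11.15 and matplotlib 3.10.9.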

Additional observations from a re-analysis of the deposited data

How the results depend on the processing

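Of 201 values of the 16 passing results on single members under the alternatives, 163 kept their sign and passed, 38 kept their sign without passing and 0 changed sign. The calls on Areg, Ereg, Hbegf, Nrg1 and Egfr with SR-3420 in both inhibitors passed under every alternative that tested them, except that Egfr in etomoxir was below the required log2FC of 1. Areg was not tested where at least 10 counts were required in every sample, and 4 members then passed in etomoxir with SR-3420 and 2 had a log2FC of at least 1 in size for SR-3420 against vehicle, in part because Areg, Tgfa and Erbb3 were no longer tested. Of the 97 values for SR-3420 against vehicle, 91 moved by less than 1 SE and 1, for Btc, changed sign.

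Hbegf, the call in triacsin C against vehicle, was lost with DESeq2 size factors, without a filter, with only the compared groups and with a required log2FC of 1 (0 members each). In triacsin C against etomoxir, 0 members passed with only the compared groups or a required log2FC of 1, and 2 passed with DESeq2. In triacsin C + SR-3420 against SR-3420, 0 passed with only the compared groups, 2 with DESeq2 size factors and 4 with DESeq2, Areg among them. Nothing is read from Areg in counts against SR-3420, with DESeq2 or with the replicate block, as those libraries chose it. Leaving out each library in turn gave 0 to 1 members in triacsin C against vehicle, 0 in triacsin C + SR-3420 against SR-3420 and 0 to 1 in triacsin C against etomoxir. Where this left a group with 1 sample, that sample was assumed to vary like the other groups. By CPM in place of CPM per kb, 6 of the 10 members held the same place in the order of mean levels over the 16 libraries. The cause of these changes was not tested.

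Replicate numbers did not pair the samples throughout: deviations from group means of same-numbered libraries correlated at 0.36 on average over 18 pairs of the groups of 3, with 12 above 0.1, and at 0.460 over all 35 pairs, with 27 above 0.1. They were -0.323 to -0.225 for triacsin C replicate 1, -0.283 to 0.00332 for etomoxir + SR-3420 replicate 2, and at least 0.259 for the other pairs. With the replicate block, 1 member passed for the difference of the responses (Btc), 6 in triacsin C + SR-3420 against SR-3420 (Areg, Ereg, Hbegf, Btc and Egfr higher, Nrg4 lower), 2 in etomoxir + SR-3420 against SR-3420 (Ereg higher, Nrg4 lower) and 3 in triacsin C against etomoxir (Hbegf higher, Btc and Nrg4 lower); 7 passed with SR-3420 in triacsin C (Nrg4 in addition) and 9 in etomoxir (Nrg4 and Erbb2 in addition). The block raised the calls over all genes as well, from 2208 higher and 2514 lower to 3515 and 3670 with SR-3420 in triacsin C, from 1597 and 1637 to 2897 and 2879 in etomoxir, and from 194 and 99 to 634 and 421 for the difference. In triacsin C + SR-3420 against SR-3420 they went from 131 and 454 to 1277 and 1731, in etomoxir + SR-3420 against SR-3420 from 0 and 1 to 761 and 1077, and in triacsin C against etomoxir from 1033 and 1125 to 2827 and 2167. Depth limits Areg without SR-3420, Tgfa and Erbb3, where libraries held as few as 1, 9 and 4 counts.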
